A study of Mus musculus with 31 samples.

Results

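The immunoglobulin genes were examined in 31 bulk RNA libraries of mouse breast tumours. They were taken as every heavy chain variable (V) and constant gene, kappa V and constant gene and lambda V and constant gene of the count table, by symbol, with at least 100 counts summed over the 31 libraries. This left 181 of 230 matching genes out of 39017 genes in the table: 85 heavy V genes, 7 heavy constant genes (Ighm, Igha, Ighe, Ighg1, Ighg2b, Ighg2c and Ighg3), 84 kappa V genes, Igkc, 3 lambda V genes and Iglc2. The summed count chose the members, so their totals are given as a description only. Just under the minimum lay Ighv1-76 with 90 counts, Igkv4-62 with 95 and Ighv1-47 with 99, and just above it Igkv12-38 with 132, Igkv3-9 with 134 and Ighv3-5 with 146. Ighd, Ighg2a, Iglc1 and Iglc3 were not analysed here.

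The tumours were orthotopic and syngeneic, and their libraries are titled 4T1 or MT, each in 4 arms. Wild-type mice received Saline and PBS (control, CTRL), Saline and Phenformin (PHEN), Poly I:C and PBS (PIC), or Poly I:C and Phenformin (COMBO). Phenformin is a biguanide that inhibits mitochondrial respiration, and poly I:C is an artificial double-stranded RNA that cells sense as viral. Each group had 4 libraries except 4T1 PHEN, which had 3 (replicates 1, 2 and 4). The design text pairs MT with FVB mice and 4T1 with BALBc mice, whereas the tags give the libraries titled 4T1 as FVB with the MT4788 line and those titled MT as BALBc with the 4T1-537 line, so groups are called by their titles. H2-Ea-ps, an MHC class II gene copy that differs between mouse strains, was at 214 to 970 CPM (counts scaled to the library total) in the 4T1 libraries and at 5.24 to 53.0 CPM in the MT libraries, so the titles mark a split in the data. The labels do not give the age of the mice or say whether libraries are separate animals, so p-values here reflect only how much libraries of a group vary, which may be technical. Library totals went from 12160110 to 19849915, and no library repeated another.

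Antibodies are made of paired heavy and light chains. Each B cell joins one V gene per chain to short joining segments and to a constant region, and the heavy constant gene sets the isotype: Ighm gives IgM, the isotype of cells that have not switched, Igha the IgA of mucosal and glandular secretions, Ighe IgE, and the Ighg genes the IgG subclasses that dominate blood responses. Plasma cells are the B lineage cells that secrete antibody, and immunoglobulin messages make up a large part of their RNA, so a small number of them can dominate these genes in a piece of tissue. Clones that expand raise the share of single V genes.

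The V genes that stood out most in some libraries were Igkv10-96 and Ighv8-11, and each has a near copy in the genome. Their V exons are shown beside those of a relative from the same family, since counts of such copies depend on the bases in which they differ, given in capitals. Igkv10-96 lies at chr6:68631963-68632260 and Igkv10-94 at chr6:68704508-68704805, both on the minus strand. Of the V exons of Ighv8-11 and Ighv8-8, also on the minus strand, the first 300 bases are shown, at chr12:115567161-115567460 and chr12:115294074-115294373. Coordinates and sequences are those of GENCODE M21 on GRCm38, the assembly of mm10, which the submitters' processing notes name.
Igkv10-96: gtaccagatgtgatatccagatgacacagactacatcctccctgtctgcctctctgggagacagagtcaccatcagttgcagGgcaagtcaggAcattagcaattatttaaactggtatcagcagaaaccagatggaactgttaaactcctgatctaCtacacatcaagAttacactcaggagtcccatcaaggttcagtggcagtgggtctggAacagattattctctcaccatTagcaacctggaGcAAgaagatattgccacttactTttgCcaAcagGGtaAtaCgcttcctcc
Igkv10-94: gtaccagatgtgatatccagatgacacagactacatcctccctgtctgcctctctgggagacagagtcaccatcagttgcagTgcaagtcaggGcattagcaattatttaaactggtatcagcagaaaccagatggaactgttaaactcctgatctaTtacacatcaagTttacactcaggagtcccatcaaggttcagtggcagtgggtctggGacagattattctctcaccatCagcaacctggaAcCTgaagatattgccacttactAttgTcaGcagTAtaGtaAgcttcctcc
Ighv8-11: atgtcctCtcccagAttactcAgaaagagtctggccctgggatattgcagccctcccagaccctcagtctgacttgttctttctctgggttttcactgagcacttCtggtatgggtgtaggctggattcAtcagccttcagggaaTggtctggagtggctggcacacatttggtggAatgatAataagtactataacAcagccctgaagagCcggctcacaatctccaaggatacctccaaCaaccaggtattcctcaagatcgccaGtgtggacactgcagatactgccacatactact
Ighv8-8: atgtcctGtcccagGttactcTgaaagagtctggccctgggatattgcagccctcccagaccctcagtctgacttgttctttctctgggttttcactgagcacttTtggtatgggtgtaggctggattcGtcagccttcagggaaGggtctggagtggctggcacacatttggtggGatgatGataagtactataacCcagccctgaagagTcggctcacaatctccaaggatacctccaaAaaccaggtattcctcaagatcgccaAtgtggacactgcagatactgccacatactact
The kappa pair differs in 16 of 298 bases and the heavy pair in 12 of 312, so the pairs are 94.6% and 96.2% identical. Another V gene, Igkv14-111 at chr6:68256572-68256869 on the plus strand, is shown because it led the kappa V counts of some MT libraries, and its closest relative, Igkv14-126, is 90.9% identical.
Igkv14-111: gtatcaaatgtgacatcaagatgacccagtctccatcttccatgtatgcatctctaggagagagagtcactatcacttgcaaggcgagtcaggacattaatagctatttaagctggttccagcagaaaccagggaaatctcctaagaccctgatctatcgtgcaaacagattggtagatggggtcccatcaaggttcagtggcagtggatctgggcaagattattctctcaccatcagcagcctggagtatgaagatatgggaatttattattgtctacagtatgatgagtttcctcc
The reference genome comes from C57BL/6 mice, while the mice here were of other strains, so a symbol names the reference gene that collected the reads and not the allele of the mouse. The same holds for Ighg2c, since BALB/c mice carry Ighg2a in its place.

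Immunoglobulin genes took between 0.000638% and 3.64% of all counts, a span set by single libraries rather than by arms. In the 4T1 CTRL group the share was 0.0240%, 0.00376%, 0.00577% and 0.0455% in replicates 1 to 4, and in 4T1 PHEN it was 0.00318%, 0.245% and 0.0145% in replicates 1, 2 and 4. In 4T1 PIC it was 0.364%, 0.000638%, 0.00172% and 0.00140%, and in 4T1 COMBO 0.00107%, 0.00374%, 0.0209% and 0.00116%. All 4 of these groups overlapped, and 4T1 PIC held both the highest and the lowest 4T1 library. In MT CTRL the share was 0.00229%, 0.00704%, 0.00565% and 0.105%, and in MT PHEN 0.00456%, 0.00219%, 0.0142% and 1.18%. In MT PIC it was 0.0164%, 0.0154%, 1.19% and 0.113%, and in MT COMBO 3.64%, 0.0491%, 0.0134% and 0.861%. The MT groups overlapped as well, through CTRL replicate 4 and PHEN replicate 4, although no MT PIC or MT COMBO library fell as low as the other 3 controls. The 95% Wilson intervals, which cover counting error only, ran from 0.000529% to 0.000769% in the lowest library and from 3.64% to 3.65% in the highest, far narrower than the spread within any group. In bulk tissue, fewer cells of a type and less RNA per cell cannot be told apart.

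**Figure D1:**
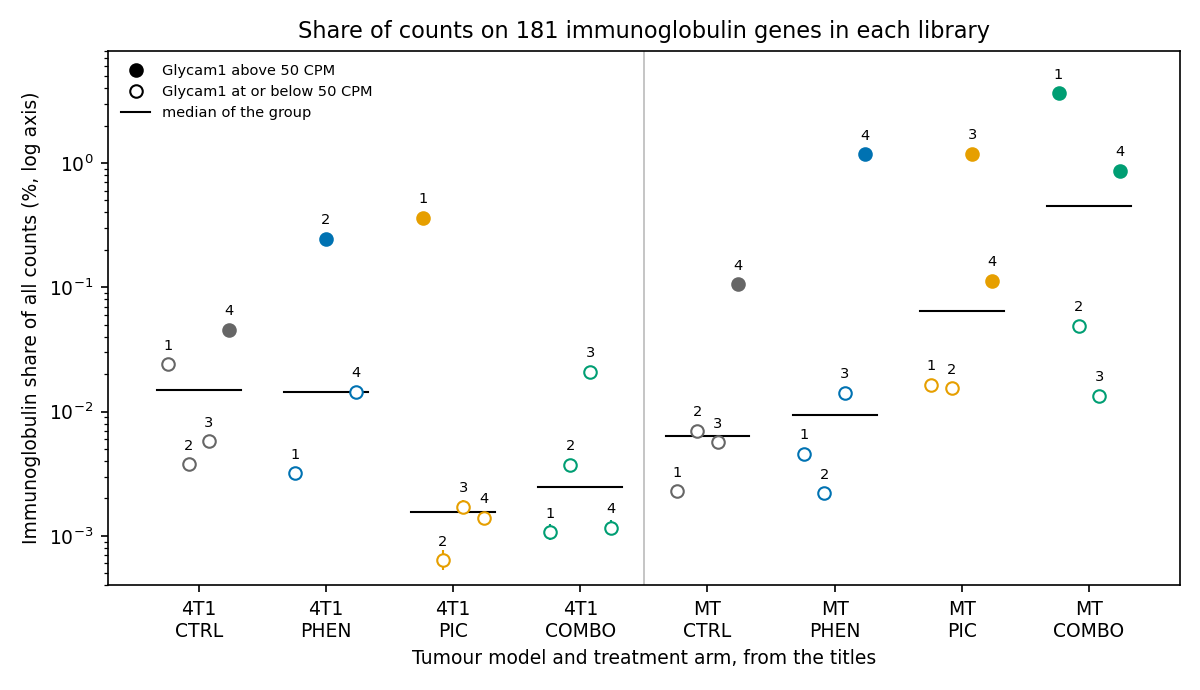
Share of all counts on the 181 immunoglobulin genes (percent, log axis) in each library, by model and arm; numbers are replicates, bars are 95% Wilson intervals, mostly smaller than the points, lines are group medians, and filled points are libraries with Glycam1 above 50 CPM. The filled points are the highest of their model, from 0.0455% to 0.364% in 4T1 and from 0.105% to 3.64% in MT, and every group except 4T1 COMBO holds at least 1.

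The high libraries were those rich in B cell and lymph node genes. Glycam1, a ligand made by the high endothelial venules of lymph nodes and also a milk protein gene of the mammary gland, was above 50 CPM in 9 libraries, a limit set after its values were seen in the gap between 11.5 and 57.4 CPM: CTRL replicate 4, PHEN replicate 2 and PIC replicate 1 of 4T1, and CTRL replicate 4, PHEN replicate 4, PIC replicates 3 and 4 and COMBO replicates 1 and 4 of MT. These 9 libraries held 97.3% of all immunoglobulin counts, and MT COMBO replicate 1 alone held 45.8%. In them, Ms4a1, which encodes CD20, was at 9.57 to 594 CPM, Cr2, a complement receptor of B cells and follicular dendritic cells, at 7.23 to 171 CPM, and Glycam1 itself at 57.4 to 1349 CPM. In the other 22 libraries Ms4a1 and Cr2 stayed at up to 3.30 and 1.59 CPM. The summed level of the 6 lymph node stroma genes other than Glycam1 was 28.4 to 551 CPM in the 9 libraries and 1.14 to 34.1 CPM in the others, and that of 16 T cell genes 346 to 2021 against 58.6 to 609 CPM, so both sums overlapped. The part of lymph node tissue in the immunoglobulin share was not tested.

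Plasma cell genes followed the immunoglobulin share in part. Jchain (listed as Igj), the chain that joins IgM and IgA units into polymers, ran from 0.406 CPM in 4T1 PIC replicate 2 to 4180 CPM in MT COMBO replicate 1, and Mzb1, an antibody-folding chaperone, from 0 to 423 CPM. Tnfrsf17, the survival receptor BCMA of plasma cells, reached at most 0.151 CPM in 4T1 and 2.29 CPM in MT, with medians of 0 and 0.155 CPM. Sdc1 and Xbp1, a surface proteoglycan and a secretory pathway regulator that plasma cells share with epithelial cells, were high throughout: Sdc1 was at 390 CPM in the library with the lowest immunoglobulin share and at 65.9 CPM in the one with the highest. Of 14 plasma cell genes in the table, Jchain, Mzb1, Irf4 and Pou2af1 followed the share by rank in both models (Spearman rho at least 0.868). The rho was negative for 4 of the 14 in 4T1 (Txndc5 -0.41, Fkbp11 -0.19, Prdm1 -0.16 and Sdc1 -0.11) and for 2 in MT (Xbp1 -0.56 and Fkbp11 -0.55). In MT, Slamf7 (0.85), Txndc5 (0.84), Tnfrsf17 (0.81) and Prdm1 (0.74) also followed the share, while in 4T1 their rho was -0.41 to 0.53. More of the plasma cell list therefore followed the share in MT than in 4T1, and in neither model did all of it. B cell genes were high in the same libraries as Jchain. By rank over libraries within each model, the genes most like the immunoglobulin share were the joining segments Ighj4 (Spearman rho 0.953 over 15 4T1 libraries and 0.974 over 16 MT libraries) and Ighj3 (0.938 and 0.974), the T cell factor gene Tcf7 (0.946 and 0.968), the kappa joining segment Igkj2 (0.928 and 0.959), Jchain (0.921 and 0.959) and the kappa joining segment Igkj4 (0.926 and 0.918). Pou2af1, the B cell coactivator of octamer promoters, stood at 0.911 and 0.909 and Cd79b, a signalling chain of the B cell receptor, at 0.907 and 0.950. These are descriptions over libraries that share depth and tissue content, with no test.

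**Figure D2:**
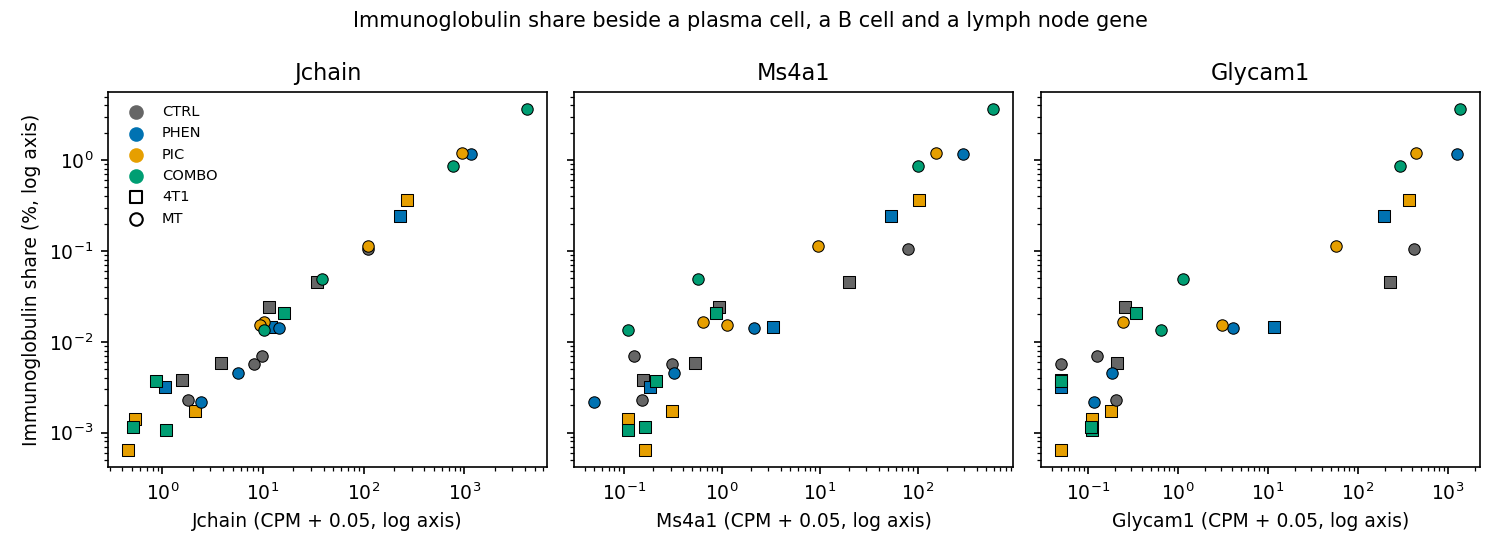
Immunoglobulin share of counts (percent, log axis) against Jchain, Ms4a1 and Glycam1 (CPM plus 0.05, log axes) in the 31 libraries, coloured by arm, squares for 4T1 and circles for MT. Jchain falls along one band from 0.406 to 4180 CPM, while Glycam1 splits the libraries into those up to 11.5 CPM and those from 57.4 CPM.

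Isotype use differed in part between libraries of low and high share, mainly in 4T1. Heavy constant counts were divided by the exon length of each gene, and shares of the 7 genes are given on that scale. In the 9 libraries with Glycam1 above 50 CPM the IgG genes together took 39.7% to 89.8%, and Ighm took 9.0% to 53.2%. Ighm led in 8 of the other 12 4T1 libraries with 74.3% to 93.9%, as in PIC replicate 4 with 93.9% of 202 heavy constant counts, COMBO replicate 4 with 86.7% of 149 and CTRL replicate 2 with 85.7% of 538. PIC replicate 3 had 54.1% of 145 counts on Ighm. The other 3 were led by Ighg1, with 65.9% in CTRL replicate 1, 74.9% in COMBO replicate 3 and 46.5% in PHEN replicate 4, and their immunoglobulin shares were the highest of the 12, at 0.0145% to 0.0240%. In the 10 other MT libraries the IgG genes took 9.8% to 66.9% and Ighm 19.7% to 70.1%, which overlapped the ranges of the 9. These isotype shares show which heavy chain gene held the counts, not how many cells did.

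Heavy and light chain counts did not keep one proportion. Ighm had more counts than Igkc, the kappa constant gene, in 9 of 15 4T1 libraries and 4 of 16 MT libraries, none of them with Glycam1 above 50 CPM. In 4T1 PIC replicate 4, Ighm had 187 counts and Igkc 10, a ratio of 18.7, and in 4T1 CTRL replicate 2 they had 447 and 51, a ratio of 8.76. In the 9 libraries rich in Glycam1 the ratio ran from 0.15 in MT PIC replicate 3 to 0.99 in 4T1 CTRL replicate 4. V genes took 8.23% of the immunoglobulin counts in 4T1 PIC replicate 4 and 37.5% in 4T1 PIC replicate 1, the ends of the range. Of the 22 other libraries, 13 had a ratio of Ighm to Igkc above the range of these 9 and 9 lay within it, and 12 had a V gene share below their range of 23.0% to 37.5% and 10 lay within it.

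Igha set the MT libraries apart from the 4T1 libraries. In MT CTRL it was at 2.59, 18.7, 8.88 and 6.58 CPM, and in MT PHEN at 6.89, 3.36, 16.4 and 41.5 CPM. In MT PIC it was at 2.89, 2.52, 18.8 and 3.41 CPM, and in MT COMBO at 10.6, 42.6, 8.49 and 22.9 CPM. The 4T1 libraries lay between 0.182 and 2.87 CPM, so the models overlapped only between 2.52 and 2.87 CPM. Igha took 48.5% of heavy constant counts per length in MT CTRL replicate 2, 28.2% in MT CTRL replicate 3 and 22.3% in MT PHEN replicate 1, but 0.1% to 1.1% in the 9 libraries with Glycam1 above 50 CPM. Pigr, the receptor that carries IgA across glandular epithelium, was at 26.6 to 194 CPM in MT and at 0.252 to 1.35 CPM in 4T1.

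The IgG subclasses were also compared. Ighg2c took 32.4% and 30.1% of heavy constant counts per length in MT PIC replicates 1 and 2, where Ighg1 took 5.7% and 6.6%. In MT COMBO replicates 2 and 3, which also had low Glycam1, Ighg1 took 27.3% and 30.9% and Ighg2c 23.2% and 8.0%. For COMBO against PIC without the MT libraries rich in Glycam1, over 2 libraries each, 0% of all genes tested were called and none of the 21 members tested, of which 4 had an unadjusted p under 0.05. Ighg1 was at 2.94 ± 1.22 on the log2 scale and Ighg2c at 0.08 ± 1.24 (SE; edgeR adjusted p = 0.999 for both). Ighe was at 0.598 to 159 CPM in the 9 libraries with Glycam1 above 50 CPM and at up to 0.471 CPM in the others. Among light chains, Iglc2 took 0% to 15.8% of light constant counts, and 0.939% to 5.14% in the 9 libraries, so kappa dominated throughout.

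**Figure D3:**
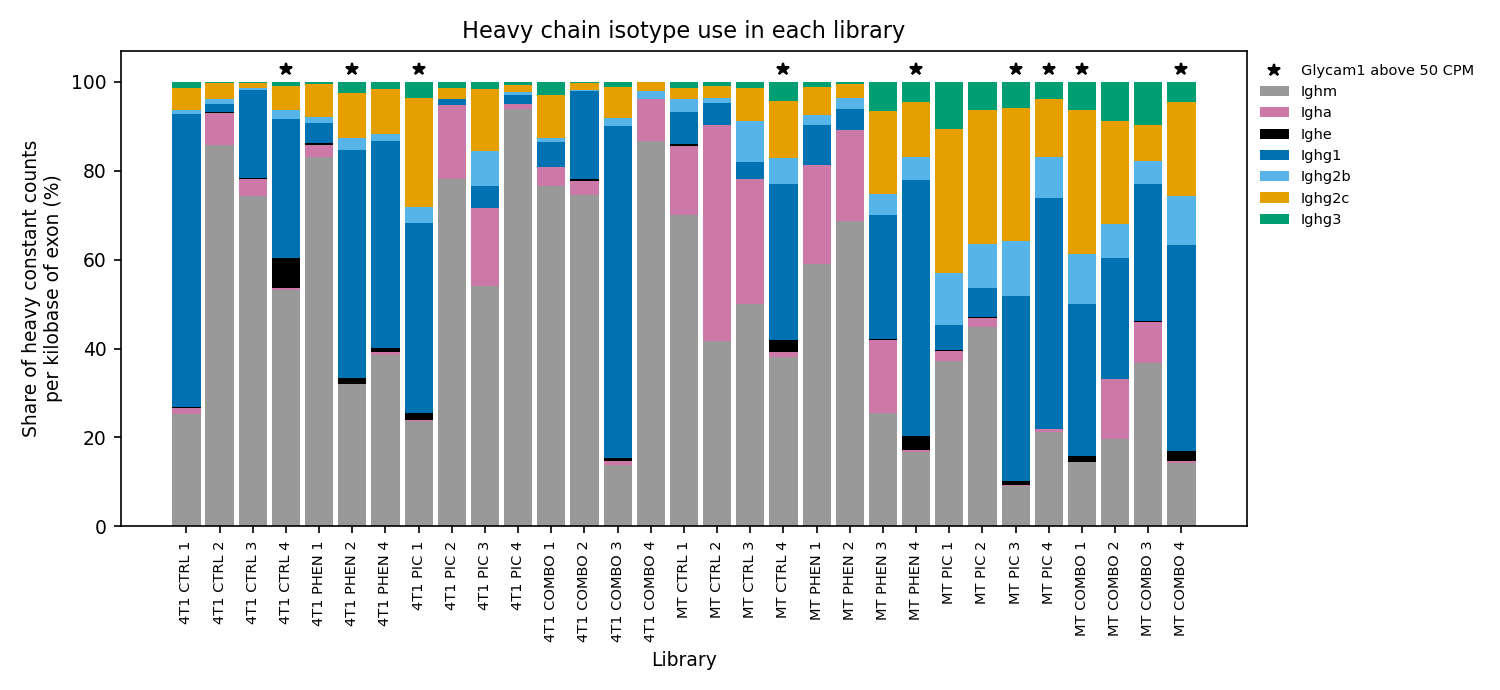
Share of heavy constant counts per kilobase of exon (percent) on each of 7 isotype genes in every library, grouped by model and arm; stars mark libraries with Glycam1 above 50 CPM. Ighm fills most of the bar in 9 low 4T1 libraries (54.1% to 93.9%), Igha reaches 48.5% in MT CTRL replicate 2, and Ighg2c reaches 32.4% in MT PIC replicate 1.

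V gene use was narrowest in the low MT libraries that had received poly I:C. Igkv10-96, printed above, took 64.1% of 473 kappa V counts in MT PIC replicate 1, 55.4% of 442 in PIC replicate 2, 50.7% of 1059 in COMBO replicate 2 and 47.96% of 294 in COMBO replicate 3. In the 6 MT libraries with Glycam1 above 50 CPM it took 14.0% to 25.5%, and in the MT CTRL and PHEN libraries with low Glycam1 3.2% to 32.0%. The 95% Wilson intervals of the 4 libraries started at 42.3% or above, and that of MT PHEN replicate 3, the next, ended at 39.1%. Its near copy Igkv10-94 took 0.76% to 3.06% in the same 4 libraries, so the near copy did not stand out with it.

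On the heavy chain side, Ighv8-11 was also highest in these 4 libraries, but it was less set apart. It took 35.3% of 173 heavy V counts in MT PIC replicate 1, 28.8% of 156 in PIC replicate 2, 22.6% of 470 in COMBO replicate 2 and 24.4% of 127 in COMBO replicate 3. Ighv8-8, its near copy, took 17.3%, 14.1%, 13.4% and 11.8%, so both genes stood out in these libraries. Whether reads of one were counted on the other was not tested. In 4T1, Ighv8-11 took at most 0.83% in the libraries with over 22 heavy V counts, and 1 of 22 counts in PIC replicate 3. Pairing of a heavy with a light chain in one cell cannot be read from bulk counts.

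Igkv14-111 led the kappa V counts in 3 of the 8 MT libraries without poly I:C, Igkv10-96 in 4 (CTRL replicates 3 and 4, PHEN replicates 3 and 4) and Igkv1-110 in CTRL replicate 2. Igkv14-111 took 35.3% of 102 kappa V counts in MT CTRL replicate 1, 43.1% of 153 in MT PHEN replicate 1 and 35.0% of 60 in MT PHEN replicate 2. MT CTRL replicates 2 and 3 followed with 10.1% and 18.3%. These 5 libraries were those with Sox10, a neural crest and myoepithelial factor gene chosen after its values were seen, at 168 to 211 CPM, and in the 11 other MT libraries, with Sox10 at 0.699 to 34.4 CPM, Igkv14-111 took 1.07% to 7.73%. Its level was 1.87, 1.46 and 2.57 CPM in MT CTRL replicates 1 to 3, 4.50, 1.41 and 1.03 CPM in MT PHEN replicates 1 to 3, and 1.12, 2.01, 1.04 and 1.14 CPM in MT PIC replicates 1 and 2 and COMBO replicates 2 and 3. PHEN replicate 1, where its share was highest, also had its highest level of these 10 libraries. For PIC against CTRL without the libraries rich in Glycam1 its level differed by -0.44 ± 0.59 on the log2 scale (SE; edgeR adjusted p = 0.585), which did not pass the test.

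The number of different V genes was also compared at equal depth. Among 50 V counts drawn from each library, 18.1, 19.96, 23.4 and 20.6 different V genes were expected in MT PIC replicates 1 and 2 and COMBO replicates 2 and 3. The 6 MT libraries with Glycam1 above 50 CPM gave 28.0 to 33.9, and MT CTRL replicates 1 to 3 gave 23.9, 24.1 and 26.2. In 4T1 the 11 libraries with at least 50 V counts gave 29.7 to 37.4, and 4 were left out with 19 to 32 V counts.

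**Figure D4:**
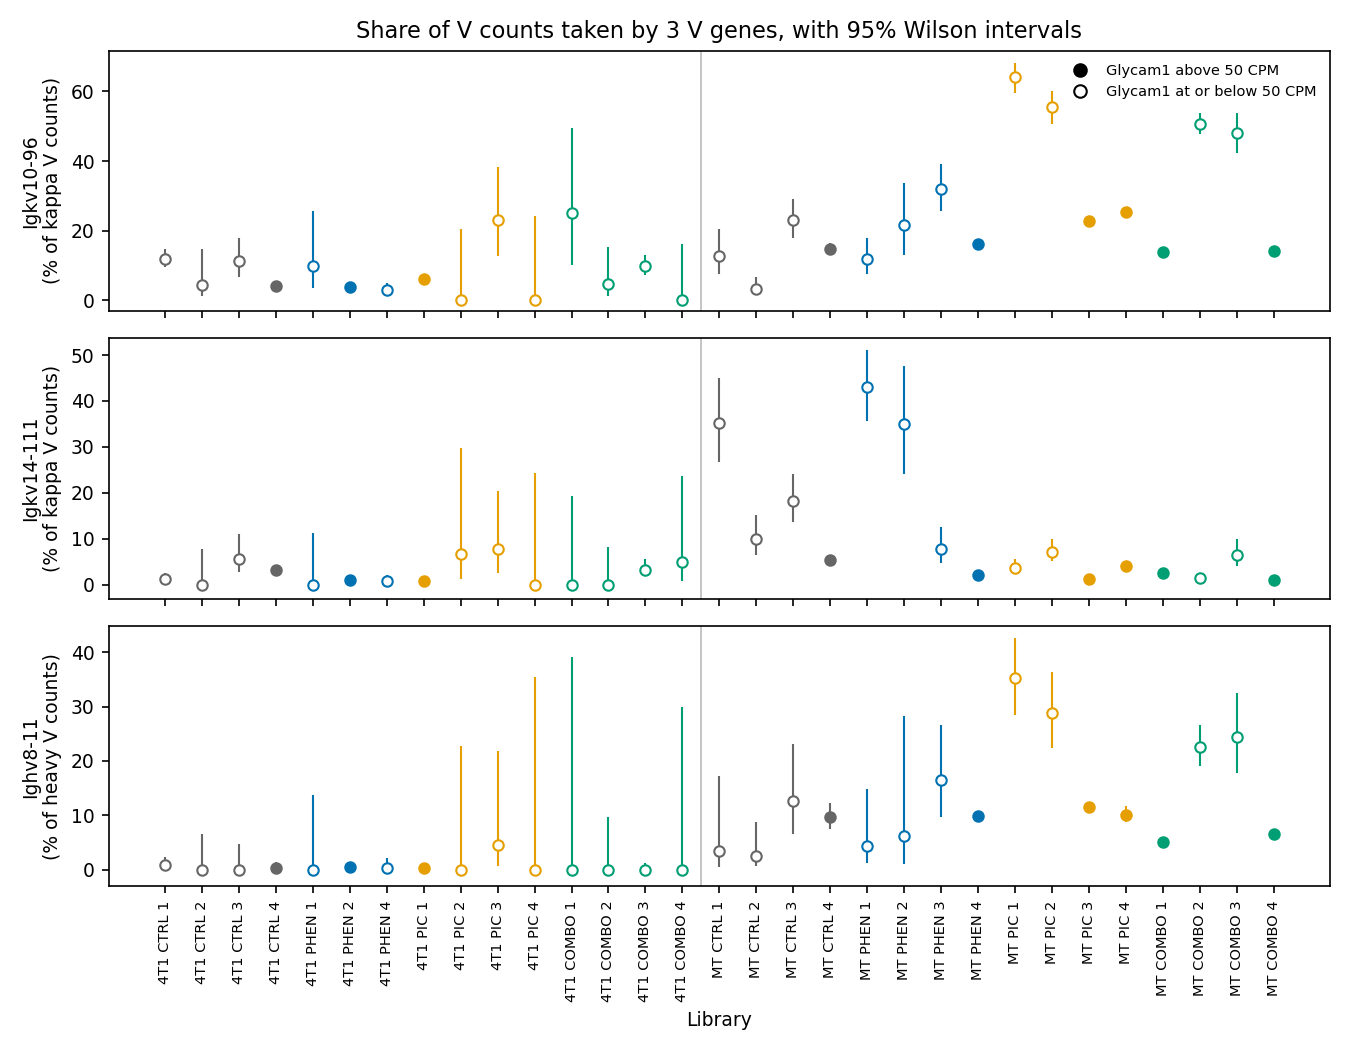
Share of kappa V counts on Igkv10-96 and Igkv14-111 and of heavy V counts on Ighv8-11 (percent) in each library, with 95% Wilson intervals for counting error; filled points are libraries with Glycam1 above 50 CPM. Igkv10-96 reaches 47.96% to 64.1% in 4 low MT libraries given poly I:C, where Ighv8-11 reaches 22.6% to 35.3%, and Igkv14-111 reaches 35.0% to 43.1% in 3 MT libraries without it.

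Arms within a model were compared with edgeR's quasi-likelihood test over all genes, with Benjamini-Hochberg adjusted p under 0.05 as a call. No immunoglobulin gene passed in any of the 12 comparisons within a model. In 4T1, 71 of the 181 genes passed the filter on low counts. For PIC against CTRL 6.32% of all genes tested were called and 0 of the 71, of which 4 had an unadjusted p under 0.05. The median log2 fold change of the 71 genes was 2.34, against 0.01 over all genes, and it rested on PIC replicate 1. Ighm stood at 337.9, 2.49, 4.67 and 11.4 CPM in 4T1 PIC and at 26.6, 24.2, 25.2 and 110 CPM in 4T1 CTRL, so 1 library lay above all controls and 3 below them. Its log2 fold change was 0.95 ± 1.23 (SE, n = 4 and 4), with an edgeR adjusted p = 0.683.

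The other 4T1 comparisons called no member either. The share of all genes called was 0% for PHEN against CTRL, for COMBO against CTRL, for COMBO against PHEN and for the interaction, which is the COMBO effect over PHEN minus the PIC effect over CTRL, and 0.246% for COMBO against PIC. The counts of members with an unadjusted p under 0.05 were 7, 2, 30, 49 and 37 in that order. DESeq2 called 0, 3, 3, 3 and 1 members there (0 for PIC against CTRL). The shares of all genes called are those of edgeR throughout, so the DESeq2 counts have none to be read against. Igkc, which stands for nearly all light chains, was at 54.2, 2.76, 9.10 and 110 CPM in CTRL, 3.49, 609.7 and 30.8 CPM in PHEN, 671 CPM and then 0.928, 3.37 and 0.608 CPM in PIC, and 1.04, 4.94, 54.0 and 1.33 CPM in COMBO. Its groups overlapped, with log2 fold changes against CTRL of 1.94 ± 1.89 for PIC, 2.28 ± 1.99 for PHEN and -1.46 ± 1.92 for COMBO (SE; n = 4, 3 and 4 against 4).

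Without the 3 4T1 libraries with Glycam1 above 50 CPM, an alternative chosen after the values were seen, the direction for poly I:C turned. All 23 members then tested were lower in PIC than in CTRL, with a median log2 fold change of -3.69 against 0.00 over all genes, and none passed while 1.49% of all genes did. Ighm was at 26.6, 24.2 and 25.2 CPM in the 3 controls left and at 2.49, 4.67 and 11.4 CPM in the 3 PIC libraries left, with no overlap. Its log2 fold change was -2.01 ± 0.48 with an edgeR adjusted p = 0.0610, which missed the threshold. The libraries left out were also those with the highest immunoglobulin share of the model, so this comparison is not independent of the outcome.

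In MT, 158 members passed the filter. For PIC against CTRL 19.6% of all genes were called and 0 of the 158, of which 15 had an unadjusted p under 0.05 and DESeq2 called 4. For COMBO against CTRL 6.14% were called and 0 of the 158, of which 125 had an unadjusted p under 0.05 and DESeq2 called 39. These percentages are edgeR's, and no share of all genes called by DESeq2 is given beside its counts. All 158 fold changes of COMBO against CTRL were positive, with a median of 6.12 on the log2 scale against 0.02 over all genes. Members were chosen by counts summed over all libraries. MT COMBO replicate 1 held 45.8% of these counts and the largest count of most members (145). The shared sign and the median are therefore not independent of how members were chosen, and cannot decide whether the arm raised them. The smallest edgeR adjusted p was 0.0664, for Igkv12-98. For PHEN against CTRL, COMBO against PIC, COMBO against PHEN and the interaction, 0%, 0%, 0.106% and 0% of all genes were called. Members with an unadjusted p under 0.05 numbered 5, 6, 5 and 0 there, and DESeq2 called 2, 0, 0 and 0.

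The constant genes show the spread behind these results. Ighg1, the IgG gene with the most counts, was at 1.14, 1.93, 1.18 and 206 CPM in MT CTRL and at 6.70, 7.93, 2766 and 319.6 CPM in MT PIC. It was at 2.66, 0.740, 26.8 and 3673 CPM in MT PHEN and at 6593, 84.1, 28.0 and 2132 CPM in MT COMBO. The 3 low controls lay below every PIC and COMBO library, whereas CTRL replicate 4 lay above 2 libraries of each. The log2 fold changes against CTRL were 3.82 ± 2.67 for PIC, 4.08 ± 2.70 for PHEN and 5.36 ± 2.87 for COMBO (SE, n = 4 and 4), with edgeR adjusted p = 0.316, 0.838 and 0.219. Igkv10-96 was at 0.674, 0.462, 3.22 and 27.5 CPM in MT CTRL, 19.9, 15.4, 554 and 54.9 CPM in MT PIC, and 1131, 34.8, 8.49 and 244 CPM in MT COMBO. Its log2 fold change was 4.29 ± 2.11 for PIC and 5.46 ± 2.23 for COMBO, with edgeR adjusted p = 0.161 and 0.127.

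Without the 6 MT libraries with Glycam1 above 50 CPM, members passed. These 6 had the highest immunoglobulin shares of the model, the 1 high control among them, so leaving them out is not independent of the outcome. For PIC against CTRL, 10 of 21 members tested rose and none fell, while 20.3% of all genes tested were called higher, over 2 and 3 libraries. Members could pass the filter on low counts through the poly I:C libraries alone. Ighv8-8 had 0 to 4 counts in the CTRL and PHEN libraries left, and 15 to 63 in the PIC and COMBO libraries left. The 10 of 21 and the 20.3% are therefore not on an equal footing. Ighm rose from 8.29, 11.4 and 11.1 CPM in CTRL replicates 1 to 3 to 31.8 and 39.4 CPM in PIC replicates 1 and 2, a log2 fold change of 1.68 ± 0.33 (SE) with an edgeR adjusted p = 0.00614. Ighg2c rose from 0.207, 0.539 and 1.18 CPM to 19.5 and 18.6 CPM, a log2 fold change of 4.80 ± 1.34 with an edgeR adjusted p = 0.0215. Ighg3, Ighg2b, Igkv10-96, Ighv8-11, Ighv8-8, Ighv8-5, Iglv1 and Igkv2-137 were the other 8, with log2 fold changes of 2.41 to 4.90. Igkc did not pass, at 2.95, 16.3 and 12.2 CPM against 33.1 and 26.5 CPM (1.41 ± 0.98, edgeR adjusted p = 0.279), nor did Igha at -1.99 ± 0.98 (edgeR adjusted p = 0.136). For COMBO against CTRL, 13 of 21 members rose and none fell, while 16.9% of all genes were called higher. Ighg1 was among the 13, at 5.21 ± 1.19 (edgeR adjusted p = 0.0154). The same limit of the filter holds for this count.

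These 10 remaining MT libraries also differed by arm in tumour markers. CTRL replicates 1 to 3 had Sox10 at 168 to 211 CPM and the basal keratin gene Krt5 at 20.7 to 29.0 CPM, whereas PIC replicates 1 and 2 had 0.854 and 2.45 CPM of Sox10 and 2535 and 1609 CPM of Krt5. COMBO replicates 2 and 3 had 2.59 and 3.19 CPM of Sox10 and 2223 and 1901 CPM of Krt5. Among these libraries poly I:C and the Sox10 to Krt5 split cannot be told apart. PHEN replicate 3, which had no poly I:C, had Krt5 at 1653 CPM and Sox10 at 34.4 CPM, and its Ighg2c was at 9.21 CPM, Ighg3 at 6.04 CPM, Igkv10-96 at 4.27 CPM and Ighm at 17.8 CPM, between the 3 controls and the PIC libraries for each of these genes. Other members did not lie between them. Ighg1 and Igkc were above PIC replicates 1 and 2 in PHEN replicate 3. Ighv8-8 and Ighv8-5, with 3 and 5 counts there, were within the range of the 3 controls. PHEN replicates 1 and 2, with Sox10 at 188 and 185 CPM, had Ighg2c at 0.955 and 0.269 CPM. Both of these markers were chosen after their values were seen.

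**Figure D5:**
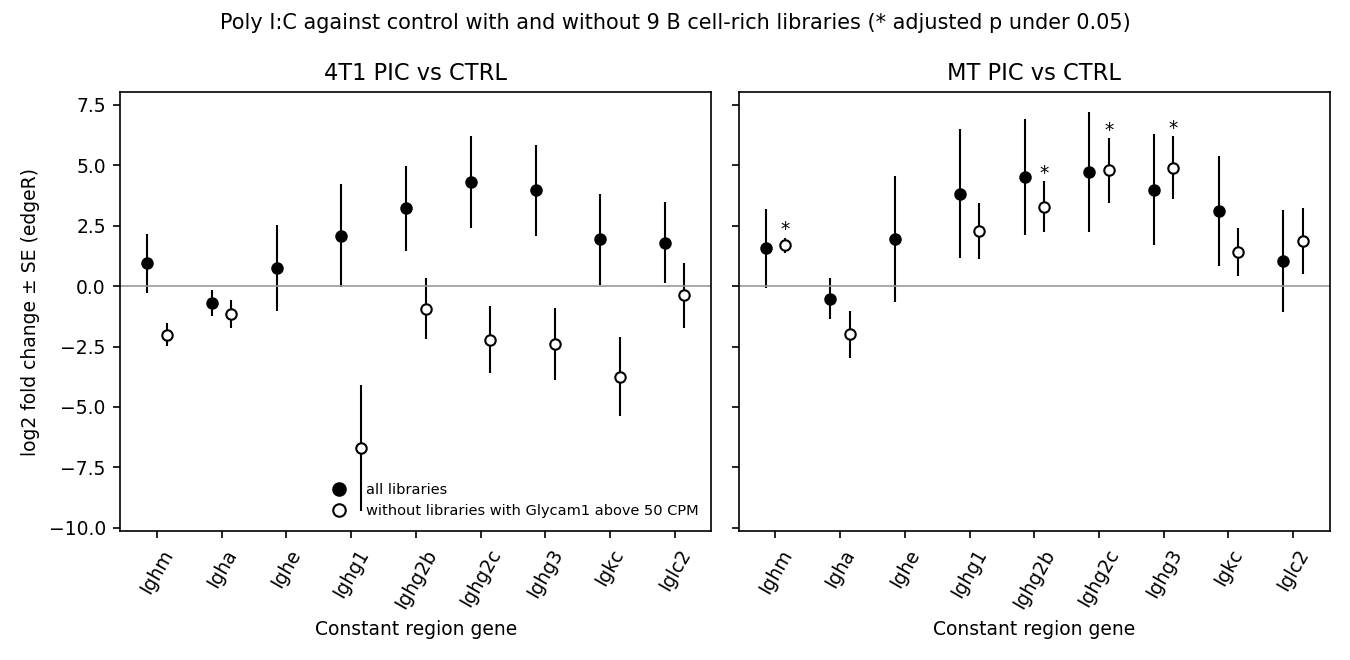
Log2 fold changes of the constant genes for PIC against CTRL in 4T1 and MT (points, edgeR; bars ± SE) with all libraries (filled) and without the 9 libraries with Glycam1 above 50 CPM (open); stars mark an adjusted p under 0.05. In 4T1, Ighm goes from 0.95 to -2.01, and in MT it goes from 1.57 to 1.68 with a smaller error.

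Between the models, taken as the mean over the 4 arms, 68 of 179 members tested were lower in 4T1 and none higher, while 35.7% of all genes were called lower. The 68 are 38.0% of the members tested, and 71% of all genes were called in either direction, so the share of members called lower was near that of all genes. In the fits by model 158 members passed the filter in MT and 71 in 4T1. A summed count of 100 was reached by 175 members in MT alone and by 106 in 4T1 alone. Members could thus enter through the MT libraries alone, so these shares and the lack of higher members are not on an equal footing. Of the 9 constant genes 7 passed, all but Ighm and Ighg1, with 26 of 83 heavy V genes, 35 of 84 kappa V genes and none of 3 lambda V genes. Igha led, with a log2 difference (4T1 minus MT) of -3.18 ± 0.42 (SE, 15 and 16 libraries) and an edgeR adjusted p = 2.01e-07. Ighv8-11, Ighv8-8, Igkv2-137 and Ighv1-81 were the lowest V genes of the 10 members with the smallest p, at -7.09 ± 1.29, -7.07 ± 1.29, -7.07 ± 1.32 and -6.48 ± 1.37. Igkv10-96 stood at -4.47 ± 1.09 (edgeR adjusted p = 0.000736) and Igkc at -3.04 ± 1.19 (0.0251), whereas Ighm at -1.77 ± 0.80 (0.0519) and Ighg1 at -2.50 ± 1.32 (0.0919) missed the threshold. Model, mouse strain and tumour line cannot be told apart here. Reads of V genes and of Ighg2c from 2 strains can map unequally to the reference, which was not tested.

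The count of 68 depended on the fit and on single libraries. It was 26 with the replicate block and 25 without the libraries with Acta1, a skeletal muscle gene, above 10 CPM. It was 124 without 4T1 PIC replicate 1, 18 without MT CTRL replicate 4, 13 without MT PHEN replicate 4 and 34 without MT PIC replicate 3. No share of all genes called is given for these refits, so their counts show only how far the number of members called moved. Without the 9 libraries with Glycam1 above 50 CPM, 14 of 36 members tested were lower and none higher, against 36.1% of all genes, with Igha at -2.94 ± 0.42 (edgeR adjusted p = 5.10e-06), Ighv8-11 at -5.31 ± 0.72 and Igkv10-96 at -3.32 ± 0.68. In the controls alone, Igha was the 1 member of 179 that passed, at -2.18 ± 0.77 (edgeR adjusted p = 0.0196), while 51.9% of all genes did, and it did not pass without 4T1 CTRL replicate 4 or without MT CTRL replicate 2. Igha stood at 2.29, 2.87, 1.82 and 1.15 CPM in 4T1 CTRL.

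Whether the arms acted differently in the models was tested as the difference of their responses. No member of 179 passed for PIC, PHEN or COMBO, while 11.1%, 0% and 4.56% of all genes did, and 0, 0 and 78 members had an unadjusted p under 0.05. DESeq2 called 4, 1 and 29, with no share of all genes given for it. For COMBO all 179 differences were negative (4T1 minus MT), with a median of -7.65 on the log2 scale against -0.02 over all genes. Members were chosen by summed counts, and most of them (145) had their largest count in MT COMBO replicate 1. The 4T1 COMBO group had no library with Glycam1 above 50 CPM. The shared sign and the median are therefore not independent of how members were chosen, and cannot decide whether the responses differed. Without the libraries with Glycam1 above 50 CPM, 8 of 36 members were lower for PIC and 10 of 36 for COMBO, and none was higher. The shares of all genes called lower were 14.1% and 12.6%. Members could again pass the filter through the MT poly I:C libraries alone, so these shares are not on an equal footing.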

How the data were processed

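RNA was extracted with RNeasy columns and sequenced as polyA-selected, stranded libraries, per the labels' protocols. The authors deposited raw read counts per gene for 31 libraries. The submitters' processing notes name Trimmomatic 0.32.48, STAR 2.3.0, featureCounts 1.4.4 and mm10. The annotation release, strand setting and treatment of reads that map to several V genes are not given in the sources used here, so counts of near-identical V genes are uncertain. CPM uses library totals (12160110 to 19849915 counts). GENCODE M21 held the identifiers of 172 of the 181 genes and gave exon lengths and V exons. The members and gene lists were chosen with earlier results of these data known.

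Counts were tested with edgeR 4.0.16 (R 4.3.3, filterByExpr with minimum count 10 and minimum total 15, TMM), in 1 fit per model and 1 joint fit of 8 groups, and the call threshold was 0.05 after Benjamini-Hochberg adjustment. The SE of a log2 fold change was taken as its size over the root of F. The settings were tested on simulated data. Alternatives were DESeq2 1.42.0, its size factors, other filters, a replicate block, only the groups compared, leaving out each library or those with Acta1 above 10 CPM, and, chosen after seeing the data, those with Glycam1 above 50 CPM. Named were the constant genes, the 10 V genes with the largest summed counts, called members with the smallest p, and each library's leading V genes. Ighv8-8, Igkv10-94 and Ighv8-5 are named as near copies. Not all named genes are printed for every comparison. Summed shares have no test. Intervals use the Wilson method.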

Additional observations from a re-analysis of the deposited data

Results flagged for a closer look

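Groups of 4 libraries were screened for a library far from the rest, with the gap to its nearest neighbour over the range of the group set against Dixon's 95% critical value, for the immunoglobulin share and for 13 genes (the 9 constant genes, Igkv10-96, Igkv14-111, Ighv8-11 and Jchain) in 7 groups. For normally distributed values, chance alone gives such a library in about 1 in 20 groups. The shares and CPM were screened without a log scale and are skewed, so that rate does not hold here and flags come more often. The 13 genes are not independent of each other or of the share. In 5 of the 7 groups the highest library stood apart in its immunoglobulin share: 4T1 COMBO replicate 3 with 0.0209%, 4T1 PIC replicate 1 with 0.364%, MT CTRL replicate 4 with 0.105%, MT PHEN replicate 4 with 1.18% and MT PIC replicate 3 with 1.19%.

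The gene counts fell on the same libraries. For 12 of the 13 genes the outlying library was 4T1 PIC replicate 1, and likewise 12 each for MT CTRL replicate 4, MT PHEN replicate 4 and MT PIC replicate 3. Igha was the gene left out in the first 3 of these, and Igkv14-111 in MT PIC replicate 3. 4T1 COMBO replicate 3 stood apart in 8 genes (Igkc, Iglc2, Ighg1, Ighg2b, Ighg2c, Igkv10-96, Igkv14-111 and Jchain) and 4T1 CTRL replicate 4 in 3 (Iglc2, Ighm and Ighe). MT COMBO replicate 1 stood apart in 4 (Iglc2, Ighg2c, Ighg3 and Igkv14-111), and 4T1 COMBO replicate 1 in 1, Igha, where it was the lowest.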

How the results depend on the processing

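Of the 181 genes, the numbers called rested on few libraries. The DESeq2 counts are given without the share of all genes that DESeq2 called. The share is also not given for the replicate block, the Acta1 setting or leaving out 1 library. It is not given either for controls alone without the libraries rich in Glycam1. Such counts show only how far the number of members called moved. DESeq2 called 3 for 4T1 COMBO against CTRL, 1 for COMBO against PIC, 3 for COMBO against PHEN and 3 for the 4T1 interaction, 4, 2 and 39 for MT PIC, PHEN and COMBO against CTRL, 8 between models in controls alone, and 4, 1 and 29 for the differences of the PIC, PHEN and COMBO responses. Without the libraries with Glycam1 above 50 CPM, chosen after seeing the data, the counts were 10 for MT PIC and 13 for MT COMBO against CTRL, 14 between models over arms, 5 in controls alone, and 8 and 10 for the PIC and COMBO responses. The same setting turned the log2 difference of Ighm between models in controls to 1.24 and that of Ighg3 in the PIC response to -7.30. The cause was not tested. Between models over arms the count was 26 with the replicate block and 25 without libraries with Acta1 above 10 CPM. The block changed no other count by over 1.5 times. Same-numbered libraries did not deviate together throughout, with correlations of -0.81 to 0.78. For MT CTRL and PHEN the correlations were 0.67, 0.67 and 0.78 in replicates 1, 2 and 4, but -0.38 in replicate 3. In 4T1 2 of 15 and in MT 5 of 16 libraries correlated best with their own number.

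Leaving out 1 library at a time gave 0 to 1 for 4T1 COMBO against PIC (1 without 4T1 PIC replicate 4), 0 to 1 for MT PIC against CTRL (1 without MT PHEN replicate 4), and 0 to 17 for MT COMBO against CTRL (11 without MT CTRL replicate 4, 17 without MT PHEN replicate 4). It gave 13 to 124 between models over arms, 0 to 1 in controls alone, and 0 to 19 for the COMBO response, with 19 without MT CTRL replicate 4, 7 without MT PHEN replicate 4, and 1 without each of 4T1 PIC replicate 1, MT COMBO replicates 2 and 3 and MT PHEN replicate 2. These counts have no share of all genes called to be read against. Mean immunoglobulin shares moved with their highest library. Without replicate 1 the mean went from 1.14% to 0.308% in MT COMBO and from 0.0919% to 0.00125% in 4T1 PIC. Of 4173 recomputed fold changes of constant genes, 2 reversed as above, 50 lost and 49 gained a call, and 224 changed sign with neither value called. In libraries with few counts, such as the 19 to 32 V counts of 4 4T1 libraries, V gene use was not measurable.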

Other observations

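Receptors and carriers of antibody differed between models in both directions. Of 10 such genes tested as the mean over arms, 6 were higher in 4T1 and 3 lower, where 71% of all genes tested were called. The Fc gamma receptor genes, by which myeloid cells bind IgG, were higher in 4T1. Their log2 differences were 1.39 ± 0.18 for Fcgr1, 1.23 ± 0.14 for Fcgr2b, 1.38 ± 0.13 for Fcgr3 and 1.499 ± 0.184 for Fcgr4 (SE). IgG genes other than Ighg1 were lower there, although counts of Ighg2c can depend on the mouse strain, as given above. Pigr was lower in 4T1 by -6.73 ± 0.35, and Ccl28, a chemokine that draws IgA plasma cells to glands, by -2.51 ± 0.37. Every edgeR adjusted p of these genes was at or under 1.04e-06.

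For poly I:C against control, Fc receptor genes moved apart in the models. In MT 6 of 9 receptor and carrier genes tested rose and none fell, while 19.6% of all genes were called in either direction, among them Fcgr2b at 2.11 ± 0.30 and Fcgrt, the neonatal Fc receptor that spares IgG from breakdown, at 1.62 ± 0.31. In 4T1 Fcgr2b fell, at -0.83 ± 0.23, as did Fcgrt, at -1.10 ± 0.23, and the other 7 did not pass. The difference of the PIC responses (4T1 minus MT) was -2.94 ± 0.38 for Fcgr2b and -2.73 ± 0.40 for Fcgrt, with edgeR adjusted p = 4.66e-05 and 0.000116. Tnfsf13b, the B cell survival factor BAFF, rose in MT with poly I:C, at 1.07 ± 0.33 (edgeR adjusted p = 0.0370), and with poly I:C and phenformin, at 1.23 ± 0.33 (0.0462). Tnfsf13, the plasma cell survival factor APRIL, was at 4.86 to 17.2 CPM in 4T1 and at 16.0 to 44.3 CPM in MT, with a log2 difference between models of -1.25 ± 0.16. In MT the CTRL and PIC libraries also differed in Sox10 and Krt5, as given above.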
